A study of Mus musculus with 16 samples.

Results

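The genes described are those of proximal T cell receptor signalling, the first steps inside a T cell after its antigen receptor is engaged. Of 8 genes named for this step, Fyn, Zap70, Lat, Lcp2, Themis, Prkcq and Plcg1 were paired with 12 of the 45141 probe sets on the arrays, and Lck was not analysed here. Gene expression was measured on 16 Affymetrix arrays, 4 in each of 4 groups of CD4 T cells from spleens of NOD/LtJ mice aged 6 weeks. NOD mice are a strain prone to autoimmune diabetes. The groups were regulatory T cells (Tregs) from KI mice, Tregs from WT mice, conventional T cells (Tconv) from KI mice and Tconv from WT mice. KI mice carried Foxp3tm2Ayr, described in the labels as Foxp3gfp, a knock-in allele at Foxp3 itself that is known to encode GFP fused to Foxp3. WT mice carried the transgene Tg(Foxp3-EGFP/cre)1aJbs, in which Foxp3 regulatory sequence drives an EGFP-Cre fusion protein. The KI cells were therefore set against reporter mice, not against mice without a transgene. The protocol gives a CD3+, CD4+ and GFP- gate for every sample, Tregs included, so how the Tregs were gated is unclear, and whether each array stands for its own mouse is not stated. P-values therefore measure the spread between these samples, which may be technical.

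When the receptor binds its antigen, the Src family kinases Lck and Fyn phosphorylate its CD3 and zeta chains, and the kinase ZAP-70 docks on them. ZAP-70 phosphorylates the adaptors LAT and SLP-76 (the product of Lcp2), which hold phospholipase C-gamma1 (Plcg1), and the diacylglycerol made by that lipase activates protein kinase C-theta (Prkcq). Themis encodes a T cell adaptor that tunes the strength of this signal during the selection of thymocytes. Tregs depend on signals of this receptor for their function.

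The cells carried the markers of their labels. Foxp3, which defines Tregs, ranged from 9.39 to 10.05 (log2 expression value) in KI Tregs and from 9.72 to 10.16 in WT Tregs, against 3.57 to 3.78 in KI Tconv and 4.24 to 4.96 in WT Tconv. The mean of 4 Treg markers (Foxp3, Il2ra, Ctla4 and Ikzf2) ranged from 10.67 to 10.89 in KI Tregs and 10.49 to 10.67 in WT Tregs. It ranged from 5.36 to 5.61 in KI Tconv and 5.85 to 6.10 in WT Tconv. Ikzf2 averaged 8.20 in KI Tconv and 9.02 in WT Tconv, without overlap, while Il2ra and Ctla4 overlapped. In Tregs, Ctla4 averaged 11.28 in KI and 10.64 in WT, and Il2ra 9.77 and 9.30, each without overlap, while Foxp3 and Ikzf2 overlapped. The Il2ra difference between KI and WT Tregs did not pass (limma adjusted p = 0.0667). The part of these marker differences in the KI minus WT results was not tested. All 5 T cell markers (Cd3d, Cd3e, Cd3g, Cd247 and Cd4) passed the low-value filter, and the mean of the 5 ranged from 10.00 to 10.24 in KI Tregs and 9.97 to 10.09 in WT Tregs, against 10.27 to 10.30 in KI Tconv and 10.13 to 10.30 in WT Tconv. Values under about 5 lie near background, since the 23 nonspecific control probe sets reached at most 4.71. All 4 measured dendritic cell markers and all 4 platelet markers stayed at or under 5 on every array. The erythroid list, with 2 of 4 genes measured and 0 tested, ranged from 3.31 to 4.42 in KI Tregs and 3.51 to 5.43 in WT Tregs. It ranged from 3.17 to 3.88 in KI Tconv and 3.47 to 4.36 in WT Tconv. Of its genes, Alas2 reached 5.98 in WT Tregs.

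Themis was the member with the widest difference between Tregs and Tconv in both genotypes. Its transcript fell 3.43-fold in KI Tregs relative to KI Tconv and 3.37-fold in WT Tregs relative to WT Tconv. Lat fell by 1.35-fold and 1.17-fold in the same comparisons. Lcp2 rose slightly in both, Fyn rose in WT Tregs, and no difference in Zap70 or Prkcq between Tregs and Tconv passed the test. No difference of a member between KI and WT cells of the same type passed the test, except Prkcq in Tconv when limma weighted the arrays. Plcg1 lay near background on every array and was not tested.

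The sequences around the annotated starts of Themis, Lat and Lcp2 are shown because these 3 genes differed between Tregs and Tconv in both genotypes. They run 5′ to 3′ from 250 bases before to 50 bases after the start in RefSeq on GRCm38.p6, at chr10:28668110-28668409 (plus strand) for Themis, chr7:126369519-126369818 (minus strand) for Lat and chr11:34046678-34046977 (plus strand) for Lcp2. Themis has 2 annotated starts, of which the first is shown. Capitals mark matches, on either strand, to a forkhead motif (GTAAACA), a Runx motif (TGTGGT), an ETS motif (AGGAAG) or an E-box (CAGNTG).
Themis: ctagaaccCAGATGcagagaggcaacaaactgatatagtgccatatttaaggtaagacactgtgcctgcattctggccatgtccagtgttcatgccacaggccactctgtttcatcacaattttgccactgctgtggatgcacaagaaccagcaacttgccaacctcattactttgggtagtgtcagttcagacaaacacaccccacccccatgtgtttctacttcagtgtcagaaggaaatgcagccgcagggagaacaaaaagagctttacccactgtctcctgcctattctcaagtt
Lat: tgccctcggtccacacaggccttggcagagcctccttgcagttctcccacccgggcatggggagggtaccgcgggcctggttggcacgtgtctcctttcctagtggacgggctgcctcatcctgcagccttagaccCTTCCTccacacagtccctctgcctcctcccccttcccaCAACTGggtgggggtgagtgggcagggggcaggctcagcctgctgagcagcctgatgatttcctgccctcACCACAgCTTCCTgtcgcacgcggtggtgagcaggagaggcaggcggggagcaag
Lcp2: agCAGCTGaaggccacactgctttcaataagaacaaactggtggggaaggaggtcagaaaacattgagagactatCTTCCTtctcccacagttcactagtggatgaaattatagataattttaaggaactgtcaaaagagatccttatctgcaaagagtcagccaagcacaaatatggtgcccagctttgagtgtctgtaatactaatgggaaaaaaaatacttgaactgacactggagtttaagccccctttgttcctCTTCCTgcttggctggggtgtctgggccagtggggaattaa
The Themis window held 1 E-box, which begins at -242 relative to the start, and no match to the other motifs. The Lat window held 1 Runx match (-5), 2 ETS matches (-114 and 3) and 1 E-box (-75), with no overlap between them. The Lcp2 window held 2 ETS matches (-175 and 10) and 1 E-box (-248). None of these windows held the forkhead letters, which occur in 3.65% of all 32851 promoter windows of this length, against 16.8% for the Runx, 35.4% for the ETS and 51.4% for the E-box letters. GC content was 47.3% for Themis, 65.7% for Lat and 43.3% for Lcp2. A match describes the letters and is not a bound site.

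**Figure D1:**
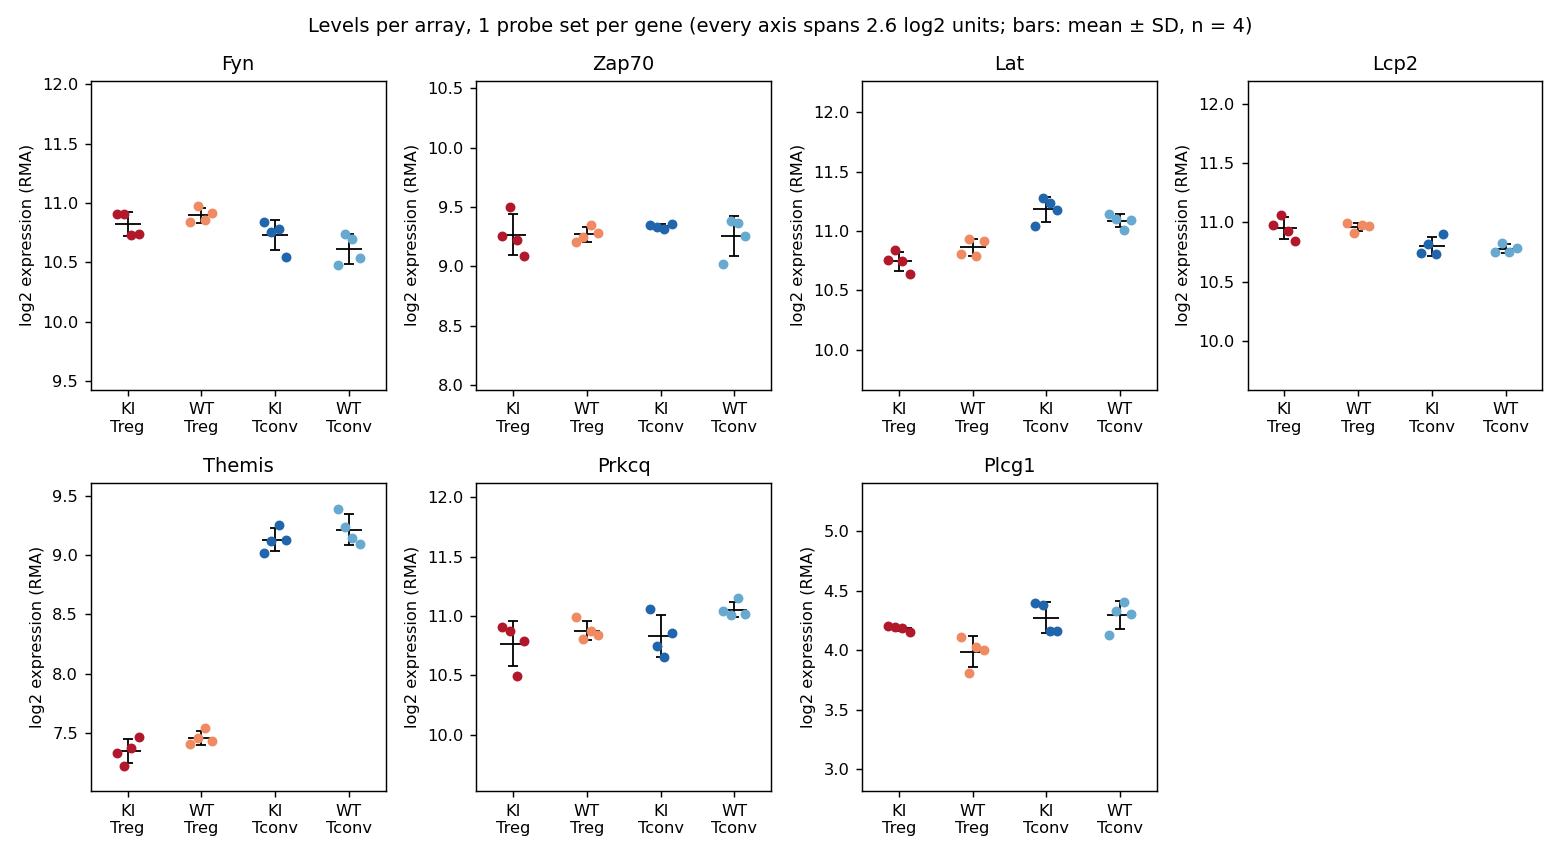
Log2 expression per array (RMA, vertical axes, each spanning 2.6 log2 units) of the 7 genes with a probe set, in KI Tregs, WT Tregs, KI Tconv and WT Tconv. Points are arrays and bars are the mean ± SD (n = 4). In the Themis panel the 8 Treg arrays lie between 7.23 and 7.54 and the 8 Tconv arrays between 9.02 and 9.39, while Zap70 overlaps in all groups.

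Tregs were compared with Tconv within each genotype by limma over all 8139 genes above background, with Benjamini-Hochberg adjustment, and the threshold for a call was an adjusted p of 0.05. Of the 6 members tested, 3 passed in KI (1 higher and 2 lower in Tregs) and 4 in WT (2 higher and 2 lower). Over all genes tested 41.1% passed in KI (21.2% higher and 19.9% lower) and 34.6% in WT (16.7% higher and 17.9% lower), so the KI count of 3 of 6 and the WT count of 4 of 6 are not read as a result about the members. The median size of the difference, without its sign, was 0.12 for the members and 0.20 for all genes in KI (log2), and 0.20 and 0.18 in WT. The arrays of Tregs and Tconv did not overlap for 2 members in KI and 5 in WT, where 34.7% and 37.2% of all genes did not overlap. In bulk samples such as these, fewer cells that express a gene and less RNA per cell cannot be told apart.

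Among the kinases, Fyn encodes a Src family kinase that acts beside Lck. On its stronger probe set, 1448765_PM_at, Fyn was at 10.91, 10.91, 10.73 and 10.74 in KI Tregs and at 10.84, 10.76, 10.78 and 10.55 in KI Tconv (log2 levels). In WT Tregs Fyn was at 10.84, 10.98, 10.85 and 10.92, and in WT Tconv at 10.48, 10.74, 10.69 and 10.54. The WT arrays of the cell types were fully separated, while those of KI overlapped. Fyn rose in WT Tregs by 0.29 (SE 0.072, 1.22-fold, limma adjusted p = 0.00483), and the KI difference was 0.093 (SE 0.072, 95% interval -0.059 to 0.25, limma adjusted p = 0.327). Whether these differ was tested by the interaction, which for Fyn was -0.19 (SE 0.102, limma adjusted p = 0.678), so no difference between genotypes was shown. The second Fyn probe set, 1417558_PM_at, gave 0.26 in WT with no overlap (limma adjusted p = 0.0685 over all probe sets) and 0.020 in KI (limma adjusted p = 0.899).

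Zap70 encodes the kinase that binds the phosphorylated receptor chains. It was at 9.26, 9.50, 9.22 and 9.09 in KI Tregs and at 9.35, 9.33, 9.31 and 9.36 in KI Tconv. In WT Tregs Zap70 was at 9.20, 9.25, 9.35 and 9.28, against 9.02, 9.38, 9.37 and 9.25 in WT Tconv. All 4 groups overlapped, and the whole range over 16 arrays was 0.48. The Treg minus Tconv difference of Zap70 was -0.071 in KI (95% interval -0.25 to 0.11, limma adjusted p = 0.542) and 0.015 in WT (95% interval -0.17 to 0.20, limma adjusted p = 0.914), so either interval allows a change of about 0.2 on the log2 scale.

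Among the adaptors, Themis had the widest range. On the strongest of its 3 probe sets, 1436423_PM_at, it was at 7.33, 7.23, 7.37 and 7.47 in KI Tregs, against 9.02, 9.12, 9.25 and 9.13 in KI Tconv. In WT Tregs Themis was at 7.41, 7.46, 7.54 and 7.44, against 9.39, 9.23, 9.14 and 9.09 in WT Tconv. Every Treg array lay below every Tconv array. The Treg minus Tconv difference of Themis was -1.78 in KI (SE 0.078, limma adjusted p = 2.42e-12) and -1.75 in WT (SE 0.078, limma adjusted p = 5.07e-12). Of the 8139 genes, 61 had a lower value of this difference than Themis in KI and 51 in WT. The interaction of Themis, which sets these differences against each other, was -0.026 (95% interval -0.26 to 0.21, limma adjusted p = 0.984). On the arrays whose titles are numbered 24 to 27, 1 of each group, the difference on this probe set was -1.66 in KI and -1.66 in WT.

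The second Themis probe set fell as well. On 1442022_PM_at, Themis was at 5.58, 5.42, 6.09 and 6.06 in KI Tregs and at 7.70, 8.15, 7.87 and 6.82 in KI Tconv. The WT Treg arrays gave 6.18, 5.89, 6.21 and 5.94 there, against 7.15, 7.55, 7.14 and 7.41 in WT Tconv. On this probe set the KI groups spread more than the WT groups, with SDs of 0.34 in KI Tregs and 0.57 in KI Tconv, against 0.16 in WT Tregs and 0.20 in WT Tconv. The differences were -1.85 in KI (SE 0.224, limma adjusted p = 4.60e-06 over all probe sets) and -1.26 in WT (SE 0.224, limma adjusted p = 0.000351), and their interaction of -0.59 (SE 0.317) did not pass (limma adjusted p = 0.78). On 1439719_PM_at, Tregs of both genotypes lay near background, between 4.23 and 4.86, and Tconv between 5.80 and 6.78. It exceeded 5 on 8 arrays, all of them Tconv, so it passed the filter only through the cell type where it is high. Its differences of -1.80 in KI and -1.74 in WT are therefore given as description only.

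**Figure D2:**
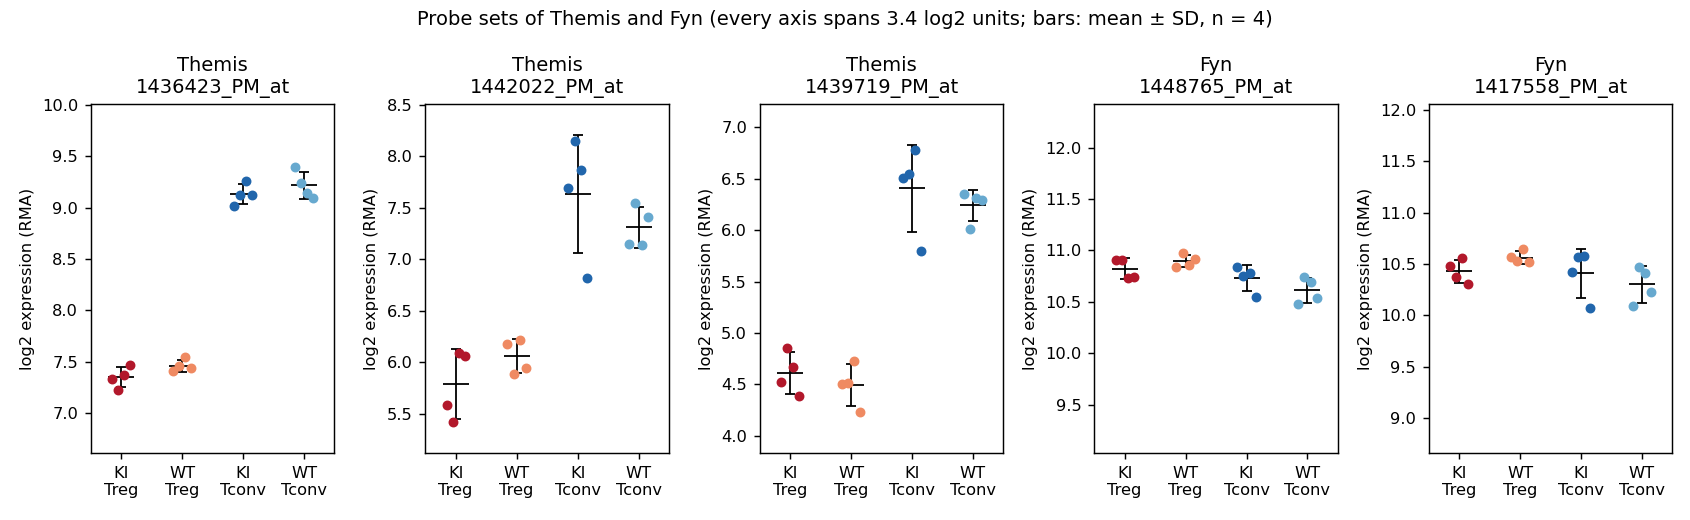
Log2 expression per array (vertical axes, each spanning 3.4 log2 units) on the 3 probe sets of Themis and the 2 of Fyn, in KI Tregs, WT Tregs, KI Tconv and WT Tconv. Points are arrays and bars are the mean ± SD (n = 4). No Treg array reaches a Tconv array on any Themis probe set, and the KI Tconv arrays are spread most on 1442022_PM_at, from 6.82 to 8.15.

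Lat, the membrane adaptor on which the signalling complex assembles, was also lower in Tregs. It was at 10.75, 10.84, 10.75 and 10.64 in KI Tregs and at 11.04, 11.28, 11.23 and 11.18 in KI Tconv. In WT Tregs Lat was at 10.81, 10.93, 10.79 and 10.92, against 11.14, 11.10, 11.01 and 11.09 in WT Tconv. The highest Treg array (10.93) lay below the lowest Tconv array (11.01). Lat fell by 0.44 in KI Tregs (SE 0.059, limma adjusted p = 9.13e-06) and by 0.23 in WT Tregs (SE 0.059, limma adjusted p = 0.00605). On the arrays numbered 24 to 27 the Lat differences were -0.53 in KI and -0.17 in WT. The larger fall in KI did not pass as an interaction (-0.21, SE 0.083, unadjusted p = 0.0213, limma adjusted p = 0.453).

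Lcp2, which encodes SLP-76, the cytosolic partner of LAT, moved the other way by a small amount. On probe set 1418641_PM_at it was at 10.98, 11.06, 10.93 and 10.84 in KI Tregs and at 10.74, 10.82, 10.74 and 10.90 in KI Tconv. In WT Tregs Lcp2 was at 10.99, 10.91, 10.98 and 10.97, against 10.75, 10.83, 10.76 and 10.78 in WT Tconv. The WT arrays were separated, and in KI 1 Tconv array lay above 1 Treg array. Lcp2 rose by 0.15 in KI Tregs (SE 0.052, 1.11-fold, limma adjusted p = 0.0257) and by 0.18 in WT Tregs (SE 0.052, 1.13-fold, limma adjusted p = 0.0112). The KI call ended without KI Treg 1 (0.14), KI Treg 2 (0.12), KI Tconv 1 (0.13) or KI Tconv 3 (0.13), and within the arrays numbered 24 to 27 the KI difference was -0.061. The second Lcp2 probe set, 1418642_PM_at, was at background throughout, from 2.63 to 3.04.

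Among the effectors, Prkcq encodes protein kinase C-theta, which links the receptor to NF-kappaB. It was at 10.91, 10.87, 10.49 and 10.79 in KI Tregs and at 11.06, 10.74, 10.65 and 10.86 in KI Tconv. In WT Tregs Prkcq was at 10.99, 10.80, 10.88 and 10.84, against 11.04, 11.01, 11.15 and 11.01 in WT Tconv. The WT Treg arrays all lay below the WT Tconv arrays, but the difference of -0.18 did not pass (SE 0.089, limma adjusted p = 0.135), and in KI it was -0.062 (SE 0.089, limma adjusted p = 0.614). The 3 lowest Prkcq values of all 16 arrays were those of KI Treg 3, KI Tconv 3 and KI Tconv 2, whose titles are numbered 19, 23 and 22, while the other 13 arrays ranged from 10.79 to 11.15. Prkcq ranged from 10.87 to 11.06 on the 3 KI arrays with title numbers from 13 to 16, which is inside the WT range. Of the KI arrays numbered 26 and 27, KI Treg 4 (10.79) lay below every WT array, the lowest being 10.80. KI Tconv 4 (10.86) lay below every WT Tconv array, the lowest being 11.01. This split of the arrays was made after the values were seen, and the cause was not tested.

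Plcg1, the lipase that LAT recruits, did not exceed 5 on any array. On its stronger probe set, 1442963_PM_at, it ranged from 4.15 to 4.20 in KI Tregs, 3.81 to 4.11 in WT Tregs, 4.16 to 4.40 in KI Tconv and 4.13 to 4.41 in WT Tconv. On 1450360_PM_at no array exceeded 3.55. These values fall within the range of the nonspecific control probe sets, so no level of Plcg1 can be read from them.

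**Figure D3:**
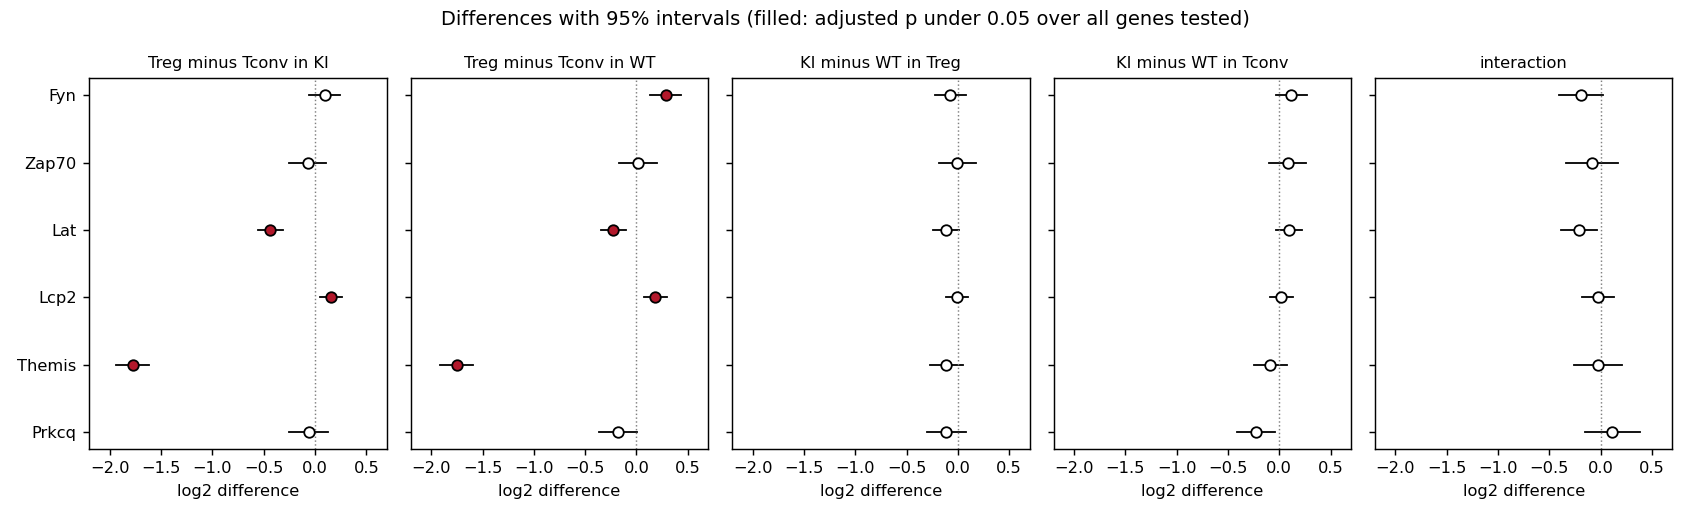
Log2 differences (horizontal axes) of the 6 members tested in each of the 5 comparisons, with 95% intervals of limma from 4 arrays a group. Filled points passed at an adjusted p under 0.05. Themis lies at -1.78 in KI and -1.75 in WT, and no point is filled in the KI minus WT panels or in the interaction.

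KI and WT cells of the same type were compared to ask whether the altered Foxp3 came with a change in these genes. None of the 6 members passed by limma in Tregs, where 2.84% of all genes passed, and none passed in Tconv, where 0.135% did. At an unadjusted p under 0.05 there were 0 members in Tregs and 1 in Tconv, Prkcq. In Tregs the differences ran from -0.12 (Lat) to -0.0045 (Zap70), and the 95% intervals of the 6 members together spanned -0.30 to 0.18. In Tconv the differences ran from -0.23 (Prkcq) to 0.12 (Fyn), with intervals between -0.41 and 0.27. Differences beyond these bounds are outside the intervals, and smaller ones remain possible. The groups of the genotypes overlapped for all 6 members in both cell types, where 8.12% of all genes in Tregs and 3.74% in Tconv did not overlap. The titles numbered 4 to 9 are WT alone and those numbered 13 to 23 KI alone, so in these arrays the number range and the genotype cannot be told apart. On the arrays numbered 24 to 27, which hold 1 of each group, the KI minus WT differences in Tregs were -0.28 for Lat, -0.20 for Zap70, -0.18 for Fyn, -0.13 for Lcp2, -0.050 for Prkcq and 0.032 for Themis. The first 4 lie below the lowest of the differences over all arrays, and with 1 array a group they have no test. Those of Lat, Zap70 and Lcp2 also lie below the lower bounds of their own intervals over all arrays (-0.24, -0.19 and -0.12). Those intervals describe group means of 4 arrays, not single arrays. On the same arrays the differences in Tconv were -0.16 for Prkcq, 0.0090 for Fyn, 0.032 for Themis, 0.087 for Lat, 0.10 for Zap70 and 0.12 for Lcp2.

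Themis was at 7.35 ± 0.10 in KI Tregs and 7.46 ± 0.06 in WT Tregs (SD, n = 4), a difference of -0.11 (SE 0.078, limma adjusted p = 0.491). In Tconv it was at 9.13 ± 0.10 in KI and 9.22 ± 0.13 in WT, a difference of -0.086 (SE 0.078, limma adjusted p = 0.885). Prkcq in Tconv was at 10.83 ± 0.18 in KI and 11.05 ± 0.07 in WT, a difference of -0.23 (SE 0.089, unadjusted p = 0.0208, limma adjusted p = 0.733). With array weights in limma, the Prkcq difference in Tconv was -0.31 and passed (limma adjusted p = 0.0328), the only member to do so under any setting tried. None of the 6 interactions passed either, where 0.786% of all genes did, and 1, that of Lat, had an unadjusted p under 0.05.

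The 4 groups fell into an order set by cell type for Themis, Lat and Lcp2. For Themis and Lat both Treg groups stood below both Tconv groups, and for Lcp2 both Treg groups stood above both Tconv groups. In each case the step between the cell types was the only pair of neighbouring groups that passed, with -1.67 for Themis in WT Tregs minus KI Tconv (SE 0.078, limma adjusted p = 7.61e-12), -0.23 for Lat in WT Tregs minus WT Tconv, and 0.15 for Lcp2 in KI Tregs minus KI Tconv. The order for Fyn was WT Tregs, KI Tregs, KI Tconv and WT Tconv, and no neighbouring pair passed. No neighbouring pair passed for Zap70 or Prkcq either.

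Genes with the most similar pattern were sought by Pearson correlation of log2 values over the 16 arrays, which fall into 2 cell types and share their normalization. For Themis they were Mboat1 and Il1rl2 (r = 0.993 each). Mboat1, an acyltransferase gene, was at 6.09 ± 0.10 in KI Tregs and 6.29 ± 0.08 in WT Tregs, against 8.15 ± 0.14 in KI Tconv and 8.14 ± 0.10 in WT Tconv (SD, n = 4). Il1rl2, which encodes the receptor for IL-36, lay near background in Tregs, at 3.35 ± 0.05 in KI and 3.69 ± 0.20 in WT, against 6.89 ± 0.26 in KI Tconv and 6.92 ± 0.24 in WT Tconv. For Lat the genes were Icam2 (r = 0.969) and Pip4k2a (0.964), for Lcp2 Gch1 (0.927) and Ciao2b (0.924), and for Fyn Mta3 (0.901) and Eif4g3 (0.871). Zap70 was closest to E4f1 (0.894) and Ascc2 (0.866), and Prkcq to Elf1 (0.806) and Ifngr2 (0.803). These are the 2 highest r among 8138 genes for each member, and they describe these arrays.

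The genes around this step differed between Tregs and Tconv in both directions. Of 71 genes in 5 lists, 58 were tested, and 20 were higher and 15 lower in KI Tregs than in KI Tconv (60.3% of those tested, against 41.1% of all genes). In WT 19 were higher and 15 lower (58.6%, against 34.6%). Of these, 32 passed in both genotypes, 19 higher and 13 lower in Tregs, each in the same direction. The lists were chosen with earlier results of these data known, so these counts and shares are not read as a result about the lists. Beyond the 3 genes of lowest p per list and comparison, the genes named below were chosen after their values were seen.

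The receptor chains, coreceptor and costimulatory partners were split. Of 9 tested, 3 rose in Tregs of both genotypes, namely the adhesion receptor gene Cd2 (0.54 in KI and 0.54 in WT) and the related scavenger receptor genes Cd5 (0.59 and 0.62) and Cd6 (0.69 and 0.60). The coreceptor gene Cd4 fell (-0.49 and -0.71), and the zeta chain gene Cd247 fell in WT (-0.35, limma adjusted p = 0.0021). Its difference was -0.18 in KI (limma adjusted p = 0.0822), and its interaction of 0.17 did not pass (limma adjusted p = 0.80). The CD3 chain genes Cd3d, Cd3e and Cd3g and the costimulatory receptor gene Cd28 did not pass in either genotype. The median difference of the list was -0.031 in KI and -0.023 in WT, against -0.017 and -0.025 over all genes.

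Of 13 tested adaptors and Tec or Vav proteins around LAT and SLP-76, 3 rose and 5 fell in KI Tregs, and 2 rose and 5 fell in WT Tregs. Grap2, which encodes GADS, the adaptor that joins SLP-76 to LAT, fell by 1.01 in KI Tregs (SE 0.133, limma adjusted p = 6.81e-06) and by 0.58 in WT Tregs. It averaged 6.46 in KI Tregs and 6.62 in WT Tregs, against 7.46 in KI Tconv and 7.20 in WT Tconv. The Tec family kinase genes Tec (-0.61 in KI and -1.20 in WT) and Txk (-0.67 and -0.87) fell too. Rhoh, which encodes a GTPase that helps bring ZAP-70 to LAT, rose by 0.85 in KI Tregs and 0.72 in WT Tregs. Sh2d2a, an adaptor gene that binds LCK, rose by 0.66 and 0.52. The list's median difference was -0.098 in KI and 0.033 in WT.

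Of 16 tested regulators of the proximal kinases and of diacylglycerol, 8 rose in KI Tregs and 4 fell, and in WT Tregs 8 rose and 3 fell. Sla, which encodes an adaptor that lowers receptor levels, rose by 0.89 in KI Tregs (limma adjusted p = 1.35e-08) and by 0.72 in WT Tregs, and Dok2, an inhibitory adaptor gene, by 0.87 and 0.53. Pag1, which encodes the membrane anchor of the inhibitory kinase CSK, fell by 0.87 in KI Tregs (limma adjusted p = 1.43e-08) and by 0.68 in WT Tregs. The median difference of the list was 0.22 in KI and 0.20 in WT. This list held the only 2 pathway genes that passed between the genotypes, both higher in KI Tregs than in WT Tregs. They were Cbl, a ubiquitin ligase gene (0.26, SE 0.056, limma adjusted p = 0.0159), and Dok2 (0.35, SE 0.082, limma adjusted p = 0.0299). The 2 of 58 pathway genes tested (3.45%) lie near the 2.84% of all genes, so this count is not read as a result about them. The count of all genes behind the 2.84% in this comparison, 231, ran from 101 to 571 when 1 array was left out. It was 29 with 3 title number ranges as a block. Cbl and Dok2 themselves were not followed under these alternatives.

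Of 15 tested effectors below LAT and PLC-gamma1, 3 rose and 5 fell in each genotype. The calcineurin subunit gene Ppp3ca rose by 0.85 in KI Tregs and 0.77 in WT Tregs, and Stim2, a sensor of calcium stores, by 0.75 and 0.52. Pik3cd, a phosphoinositide kinase gene, fell by 0.68 and 0.59, and Rasgrp1, an activator of Ras that binds diacylglycerol, by 0.26 and 0.36. The list's median difference was -0.059 in KI and -0.11 in WT.

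Of 13 paralogs of the members, 5 were tested, and 3 protein kinase C genes passed in both genotypes, where 41.1% of all genes passed in KI and 34.6% in WT. Prkca rose by 1.29 in KI Tregs (SE 0.094, limma adjusted p = 2.86e-09) and 1.04 in WT Tregs, Prkch by 0.54 and 0.48, and Prkcd by 0.45 and 0.50. Prkcq itself was at -0.062 and -0.18 in these comparisons, neither of which passed, and Prkcb and Plcg2 did not pass.

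**Figure D4:**
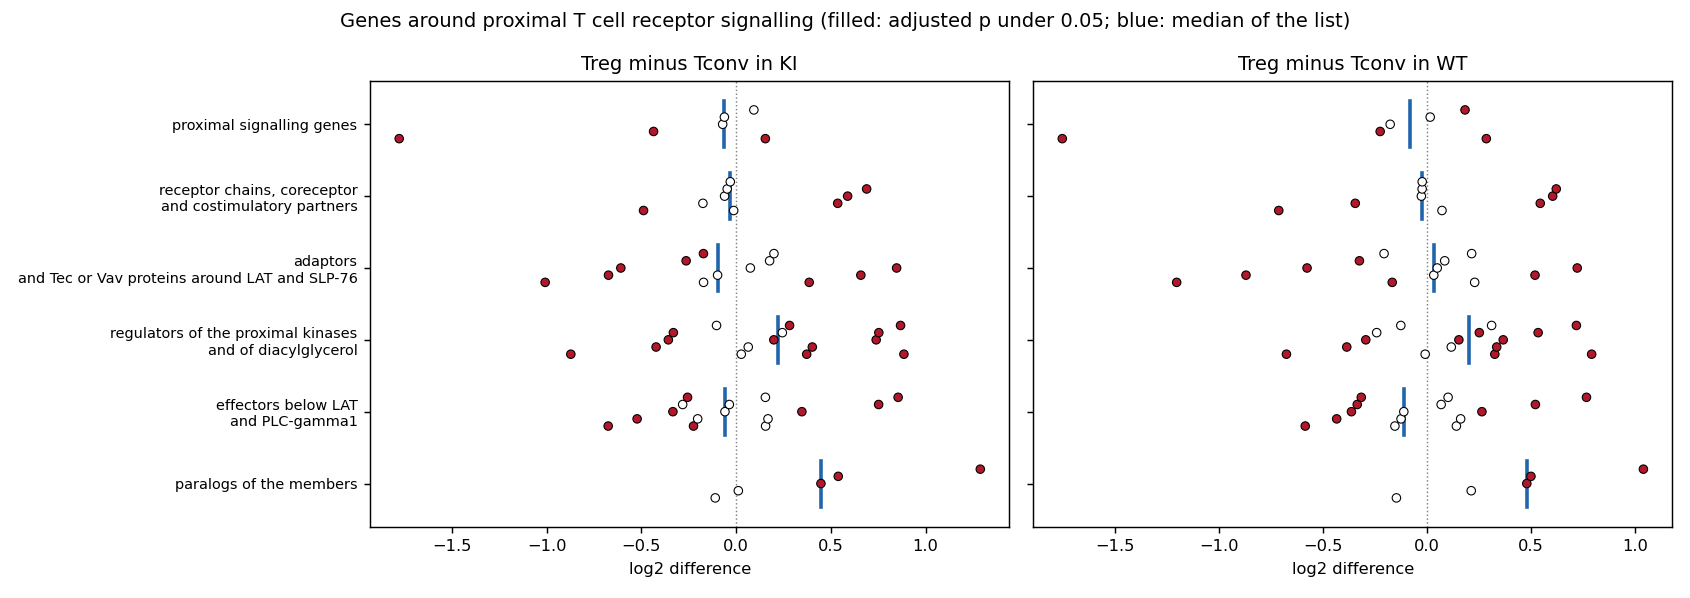
Log2 differences between Tregs and Tconv (horizontal axes) of the 6 members tested and of the genes tested in 5 lists around them, in KI (left) and WT (right). Filled points passed at an adjusted p under 0.05 and blue lines are list medians. Themis, at -1.78 and -1.75, is the leftmost point of the top row, and Prkca, at 1.29 and 1.04, the rightmost of the bottom row.

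Markers of some other cells also moved between Tregs and Tconv. The mean of the CD8 T cell markers, both tested, ranged from 5.85 to 6.26 in KI Tregs and 6.11 to 6.45 in WT Tregs, against 5.18 to 5.61 in KI Tconv and 4.80 to 5.19 in WT Tconv, with Cd8a near background in Tconv. Cd8b1 did not follow Cd8a, at 6.16 ± 0.16 in KI Tregs and 6.42 ± 0.15 in KI Tconv, and at 6.09 ± 0.13 in WT Tregs and 6.01 ± 0.20 in WT Tconv (SD, n = 4). The B cell list, with 2 of 5 measured genes tested and Cd79a, Pax5 and Ebf1 never above 5, ranged from 4.24 to 5.02, 4.15 to 5.49, 3.88 to 4.90 and 4.14 to 5.48 in KI Tregs, WT Tregs, KI Tconv and WT Tconv. The monocyte list, with 2 of 6 tested and Csf1r and Fcgr1 never above 5, ranged from 3.76 to 5.61 in KI Tregs, 3.96 to 5.76 in WT Tregs and 3.72 to 4.52 in KI Tconv, and reached 4.61 in WT Tconv. In KI Tregs, WT Tregs, KI Tconv and WT Tconv, in that order, the neutrophil list (2 of 4 tested, Mpo and Elane never above 5) ranged from 4.49 to 6.70, 3.19 to 6.92, 3.80 to 5.94 and 4.35 to 6.42. Its tested genes varied far more between arrays of a group, with S100a9 from 6.04 to 10.22 in KI Tregs and 3.28 to 11.12 in WT Tregs, against 4.46 to 8.78 in KI Tconv and 5.92 to 9.87 in WT Tconv. S100a8 likewise ran from 3.58 to 10.35 within WT Tregs. The NK cell list (1 of 5 tested) ranged, in the same order, from 3.88 to 4.22, 3.80 to 4.06, 3.61 to 3.96 and 3.70 to 3.98. These list means include genes near background. Among the tested genes, Eomes averaged 6.52, 6.61, 5.70 and 5.68 in that order. Cd79b averaged 6.99, 7.41, 5.61 and 6.26, with group SDs of 0.40 to 0.87. Cd68 averaged 5.22, 5.04, 3.98 and 3.92, with group SDs of 0.28 to 1.15. It overlapped between KI Tregs (3.80 to 6.61) and KI Tconv (3.64 to 4.29), but not between WT Tregs (4.48 to 6.21) and WT Tconv (3.54 to 4.25). No Tconv array of Cd68 exceeded 5, so it passed the filter only through Tregs. Ms4a1 (6.30, 6.62, 6.04 and 6.92) and Lyz2 (8.10, 7.74, 6.81 and 7.40) had group SDs of 1.17 to 1.84. The part of these cells in the differences of Themis, Lat, Lcp2 and Fyn was not tested.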

How the data were processed

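The values deposited by the authors are log2 signals, 1 per probe set, from RMA in Partek 6.5, per the submitters' processing notes; the options used are not given in the sources used here. RMA includes a background correction and quantile normalization, which forces all arrays to 1 distribution. Values ran from 1.95 to 13.9, array medians from 3.69 to 3.76, and 17581 to 17990 probe sets per array exceeded 5. The number of arrays limits the precision.

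Of 45141 probe sets, 28898 matched 1 gene through the platform annotation (28689 of them named by Entrez identifier), 551 several and 15588 none, and 104 were controls. The brightest probe set on average stood for each of 17097 genes. Genes had to exceed 5 on 4 or more arrays, which left 8139. Group means were fitted over the 16 arrays with limma (version 3.58.1, R 4.3.3), using a variance trend, two-sided tests and Benjamini-Hochberg adjustment over all genes tested, and again for every probe set above the filter. Differences are log2 with limma's standard error (SE). The interaction is the Treg minus Tconv difference in KI less the one in WT. The code was tested on simulated data. Replicates are numbered within a group in accession order.

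Named were all members, up to 3 genes of lowest p per pathway list and comparison, and the 2 genes most like each member. The other pathway genes named were chosen after their values were seen. The members and lists were chosen with earlier results of these data known. Alternatives were other filters, probe set rules, scalings, variance models, blocks by title number and arrays left out.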

Additional observations from a re-analysis of the deposited data

Results flagged for a closer look

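No array of any group stood outside its group by Dixon's test at the 95% level in 48 tests, 1 for each of 12 probe sets in each of 4 groups, where chance flags about 1 in 20. No interaction of a member passed.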

How the results depend on the processing

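The falls of Themis and Lat and the rises of Fyn and Lcp2 in WT Tregs kept direction and passed under each of the 11 tested alternatives over all groups, except that Lcp2 was no longer called with the mean over all probe sets of a gene (0.058), which adds a probe set at background. Lcp2 in KI was not called with that mean (0.014) or without a variance trend (0.15, limma adjusted p = 0.0523), nor with every probe set tested and no filter (0.15, limma adjusted p = 0.0633), a setting chosen after seeing the data, and its adjusted p ranged from 0.00781 to 0.0904 when 1 array was left out. In the settings that test every probe set, only the brightest probe set of each gene was followed. The second Fyn probe set, 1417558_PM_at, did not pass in WT (limma adjusted p = 0.0685 over all probe sets). Of the 6 members, 2 to 3 passed in KI and 4 in WT when 1 array was left out, and 0 between genotypes. With array weights 1 member passed in Tconv (Prkcq). The count of genes between KI and WT Tregs was 1715 with array weights, 29 with 3 title number ranges as a block, 422 without the arrays numbered 24 to 27, and 101 to 571 when 1 array was left out, against 231. In Tconv it was 249, 5, 105 and 7 to 65, against 11. The interaction count was 453 with array weights, 42 with every probe set tested, and 37 to 104 when 1 array was left out, against 64. The cause was not tested.

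Differences that changed sign passed in neither setting, apart from Lcp2 in KI, which was -0.061 on the arrays numbered 24 to 27. With array weights they were Prkcq between KI Tregs and KI Tconv (0.094), Zap70 between WT Tregs and WT Tconv (-0.0079), and Lcp2 between genotypes in Tregs (0.0076), in Tconv (-0.0045) and as interaction (0.012). With array medians subtracted they were Zap70 in WT (-0.020), Zap70 (0.011) and Lcp2 (0.0061) between genotypes in Tregs, and the Themis interaction (0.00026). With the mean over all probe sets they were Lcp2 in Tregs (0.0090) and Themis in Tconv (0.13), both between genotypes. With 3 title number ranges as a block, Themis was 0.019 in Tregs and 0.045 in Tconv, and Zap70 -0.0033 in Tconv. Without the arrays numbered 24 to 27, Zap70 (0.059) and Lcp2 (0.030) in Tregs, Lcp2 in Tconv (-0.013) and the Lcp2 interaction (0.043) changed sign. With 1 array left out, Prkcq in KI ranged from -0.12 to 0.029 and Zap70 in WT from -0.063 to 0.057. Between genotypes, Zap70 ranged from -0.083 to 0.055 in Tregs, and Lcp2 from -0.045 to 0.028 in Tregs and -0.015 to 0.041 in Tconv. The interactions of Themis and Lcp2 ranged from -0.085 to 0.016 and from -0.065 to 0.0083.

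No paired analysis was possible because the labels number all 16 arrays differently. Values under about 5 limit what can be said of Plcg1.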
